A study of Danio rerio with 2 samples.

Results

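The genes described here are the zebrafish transcription factors of the Sox, Pax, Fox, Lhx, Irx, Dlx and Nkx families, picked by the start of the gene symbol. Among 12857 genes that the array named, 117 genes on 215 probes belonged to these 7 families. *sox9a*, *sox10*, *foxi3a*, *foxi3b*, *foxo3a*, *foxo3b*, *foxc1a* and *foxc1b* were kept apart from them. Total RNA of whole zebrafish at 3 days post fertilization (dpf) was hybridised with a single dye to 1 Agilent array per group. The *miR-132* MO larvae had been injected with 8 ng of a morpholino, an antisense oligonucleotide that blocks mature *miR-132*, and the Ctrl MO larvae with 8 ng of a control morpholino. Embryos of both groups were freed from the chorion with pronase and raised in dilute Hanks' solution, to which the methods add PTU, a blocker of pigment formation. The labels give neither a mutant allele nor a transgene for either group, and they do not give the strain or how many animals made up each RNA sample. A morpholino injected at the 1-cell stage reaches all tissues, so the arrays read the whole animal and not one organ.

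Sox factors bind DNA through an HMG box, Pax factors through a paired domain, Fox factors through a forkhead domain, and Lhx, Irx, Dlx and Nkx factors through a homeodomain. In vertebrate embryos they divide the neural tube, eye, ear, pharynx, gut and heart into regions and set the fate of the progenitors within them. In the larval brain and retina some of them are found in dividing progenitors and others in neurons that have just been born. Many exist in zebrafish as a and b duplicates left by a genome duplication in ancestral teleost fish.

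On these arrays most of the patterning factors lay somewhat above their Ctrl MO level in *miR-132* MO larvae. All but 10 of the 117 genes gave a log2 ratio of *miR-132* MO to Ctrl MO, and 76 of these ratios were above 0 and 31 below. Their median was 0.14, against -0.01 over all 12075 genes with a ratio. The share of genes above 0 was 71.0% among the patterning factors, against 49.3% among all genes. It was 67.6% against 47.7% with dim readings left at their own value, and 68.4% against 49.3% with no filter on dim probes. With spike-in scaling it was 82.2% against 59.6%. At a fold of 1.5 or more, 10 patterning factors were higher and 2 lower, and 95 lay between these limits. The same limits took 4.03% of all genes as higher and 7.9% as lower. With spike-in scaling the counts were 14 higher and 1 lower among the patterning factors and 665 higher and 785 lower among all genes, against 487 higher and 954 lower in all genes with the main scaling. With quantile normalization 12 patterning factors were higher and 0 lower, against 5.08% of all genes higher and 6.92% lower. With only the brightest probe of each gene 6 of 108 were higher and 1 lower, against 3.63% of all genes higher and 8.62% lower. Normexp background correction adds the same offset to dim and bright probes before the arrays are scaled, and so narrows the ratios of dim ones. The median over all genes was then -0.04 and that of the patterning factors 0.08. Above 0 were 42.8% of all genes and 60.7% of the patterning factors, 68 of 112. With normexp 1 of 112 patterning factors was higher and 0 lower, against 1.91% of all genes higher and 4.66% lower. Each group is 1 array, so there is no spread between animals to set a ratio against, and no test was run. In RNA of whole larvae, fewer cells of a type and less RNA per cell cannot be told apart.

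Every value below is a processed intensity divided by the 75th percentile of its own array and given as a percent of it. The probes of a gene were averaged on the log scale. Because probes differ in how well they bind, only the 2 arrays are compared for 1 gene and never the intensities of different genes. Error between spots was read from 26 probes printed on 4 or more usable spots, all well above background on both arrays. The SD of the log2 ratio between spots of 1 probe had a median of 0.10, from 0.014 to 0.469. It does not cover dim probes. The range between probes of a gene, given below, is the other measure of technical error that the arrays hold. The 75th percentile was 866 intensity units in *miR-132* MO and 731 in Ctrl MO, the share of spots well above background was 80.3% in *miR-132* MO and 88.0% in Ctrl MO, and negative control spots had an SD of 17.2 in *miR-132* MO and 2.98 in Ctrl MO. The part that this wider background in *miR-132* MO plays in the ratios of dim genes was not tested.

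**Figure D1:**
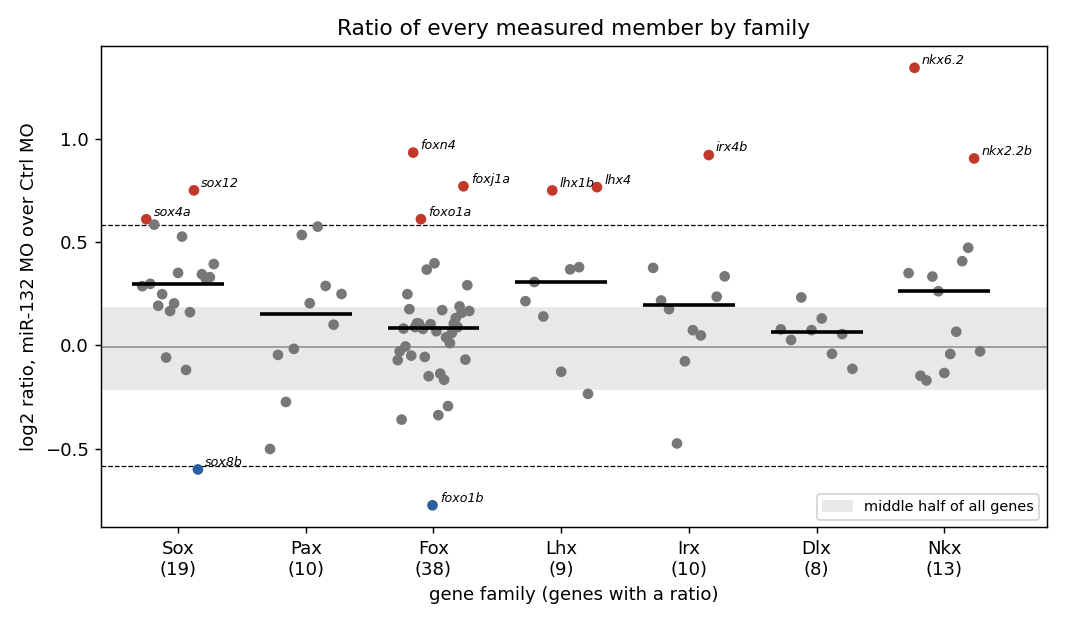
Log2 ratio, *miR-132* MO to Ctrl MO (vertical axis), for all patterning factors that gave one, 1 point per gene, by family; thick bars are family medians, dashed lines mark 1.5-fold, and the grey band holds the middle 50% of all genes. The medians of all 7 families lie above 0, from 0.06 for Dlx to 0.31 for Lhx, and the 12 named genes are past 1.5-fold, with *foxo1b* drawn at its bound.

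The 7 families differed in how far their members lay from 0. The Lhx, Sox and Nkx families had the higher medians, 0.31 over 9 Lhx genes, 0.30 over 19 Sox genes and 0.26 over 13 Nkx genes. The Irx median was 0.20 over 10 genes. The Pax median of 0.15 over 10 genes, the Fox median of 0.09 over 38 genes and the Dlx median of 0.06 over 8 genes lay within the middle 50% of all genes, which ran from -0.21 to 0.18. The place of Nkx depended on the setting. Its median was 0.0233 with normexp, below 0.10 for Irx, and 0.125 with normexp without an offset. With dim readings left at their own value, which adds *nkx2.9* and *nkx6.3* to the family, it was 0.0666. The part of dim genes in these shifts was not tested. Members above 0 numbered 16 of 19 in Sox, 8 of 10 in Irx, 7 of 9 in Lhx, 6 of 8 in Dlx, 25 of 38 in Fox, 8 of 13 in Nkx and 6 of 10 in Pax. The 2 lower genes were a Sox and a Fox factor, and no Pax or Dlx factor passed 1.5-fold in either direction. Whether the families differ from each other was not tested.

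The SoxC factors, which act in neurons and other cells as they leave the progenitor state, were all above 0. The median of the 5 genes was 0.58, and 2 of them were past 1.5-fold. *sox12* read 8.93% in *miR-132* MO and 5.31% in Ctrl MO on its single probe, a log2 ratio of 0.75. *sox4a* read 166% in *miR-132* MO and 108% in Ctrl MO, a log2 ratio of 0.61, and its 3 probes were at 0.38, 0.68 and 0.78. Its duplicate *sox4b* fell just short of the limit, with 123% in *miR-132* MO and 82.1% in Ctrl MO, a log2 ratio of 0.5847 against 0.5850 for 1.5-fold. *sox11b*, which is expressed widely in the developing nervous system, read 347% in *miR-132* MO and 241% in Ctrl MO, a log2 ratio of 0.53. *sox11a* was closest to 0 in this group, at 0.17.

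The SoxB factors keep neural progenitors from differentiating or, in the case of *sox14* and the *sox21* genes, counter that activity. None of the 9 was past 1.5-fold, and 8 of 9 were above 0 with a median of 0.30. *sox19a* led them at 0.39, followed by *sox1b* at 0.35, *sox19b* at 0.34 and *sox14* at 0.32. *sox3* was at 0.29, with 393% in *miR-132* MO and 322% in Ctrl MO. *sox2*, the SoxB gene best known from stem cells, was the exception at -0.06, with 388% in *miR-132* MO and 404% in Ctrl MO. The SoxD genes *sox5* and *sox6*, partners of other Sox factors in cartilage and glia, were at 0.25 and 0.20.

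The SoxE genes went apart. *sox8b* was the lowest Sox gene and 1 of the 2 lower patterning factors, with 4.99% in *miR-132* MO and 7.56% in Ctrl MO, a log2 ratio of -0.60 and probes at -0.57 and -0.63. It passed 1.5-fold in 5 of 11 alternative settings, so the call depends on the setting. *sox9b*, which acts in cartilage, retina and glia, was at 0.33. *sox7* of the SoxF group, a factor of vascular endothelium, was at -0.12. *sox17*, a marker of endoderm and of some vessels, was not well above background on either array.

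**Figure D2:**
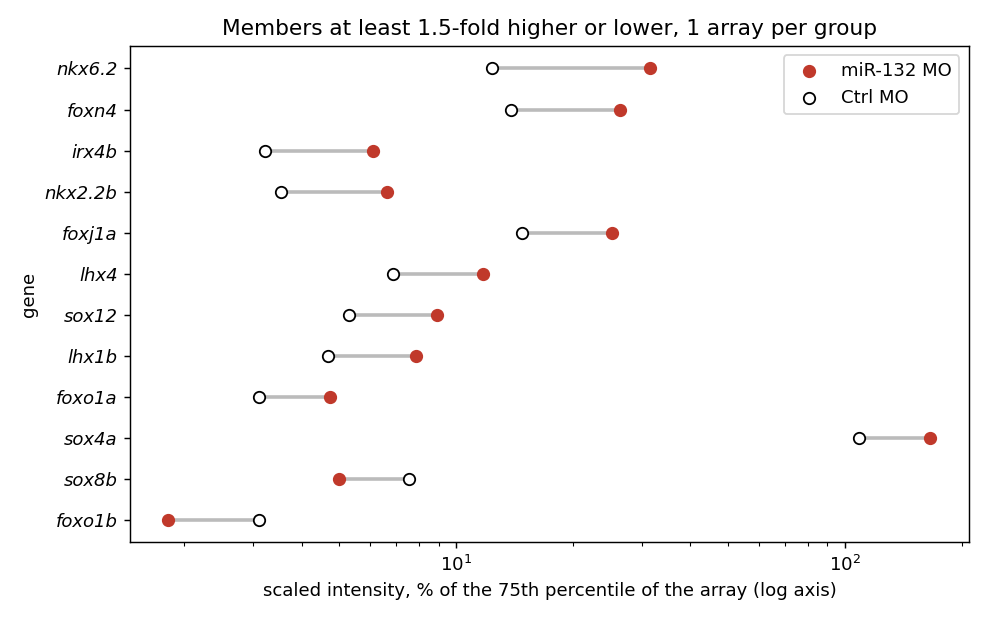
Scaled intensity in percent of the 75th percentile of each array (horizontal log axis) for the 12 patterning factors at least 1.5-fold higher or lower, filled points for *miR-132* MO and open points for Ctrl MO, 1 array per group. *nkx6.2* shows the widest gap, 31.4% in *miR-132* MO and 12.4% in Ctrl MO, and the *foxo1b* point in *miR-132* MO is the floor of 1.82% and not its own reading.

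Factors of the ventral neural tube held 4 of the 10 higher genes. There Nkx and Lhx factors mark the domains that give rise to motor neurons, interneurons and oligodendrocytes. Of 10 such genes with a ratio, 9 were above 0 and the median was 0.38. With normexp the median was 0.0931, and *nkx2.2b* at 0.09, *lhx1b* at 0.22 and *lhx4* at 0.30 were under 1.5-fold. *nkx6.2* had the largest ratio of all patterning factors, with 31.4% in *miR-132* MO and 12.4% in Ctrl MO, 2.54-fold higher on its single probe. It was the only patterning factor past 2-fold, a limit that 1.01% of all genes passed as higher and 3.46% as lower, and it was past 1.5-fold in 11 of 11 alternative settings. *nkx2.2b*, which marks the cells beside the floor plate, read 6.62% in *miR-132* MO and 3.54% in Ctrl MO, with its 2 probes at 0.73 and 1.08. *lhx4*, a factor of motor neuron and pituitary development, read 11.7% in *miR-132* MO and 6.88% in Ctrl MO, but its probes lay apart at 0.35 and 1.19. *lhx1b*, found in spinal and hindbrain interneurons, read 7.89% in *miR-132* MO and 4.69% in Ctrl MO, and its 3 probes ran from 0.49 to 1.0.

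The other ventral factors were closer to 0. *nkx2.2a* was at 0.41, *nkx6.1* at 0.35 and *lhx1a* at 0.31. *foxa2*, the forkhead factor of the floor plate, was at 0.07, with 146% in *miR-132* MO and 139% in Ctrl MO. *lhx3*, which acts beside *lhx4* in motor neurons, was the lowest Lhx gene at -0.23, with 7.25% in *miR-132* MO and 8.53% in Ctrl MO. *nkx2.9* and *nkx6.3* were too dim on 1 array to give a ratio.

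Factors of the eye field and retina were above 0 in 9 of 9 genes, with a median of 0.29. *foxn4*, which retinal progenitors need to make horizontal and amacrine cells and which also acts in spinal interneuron progenitors, was the highest Fox gene, with 26.4% in *miR-132* MO and 13.8% in Ctrl MO, a log2 ratio of 0.93. Its 5 probes were all above 0, from 0.51 to 1.66. *pax2a*, a factor of the optic stalk, the midbrain-hindbrain boundary, the ear and the kidney, was next at 0.53, followed by *lhx2b* at 0.37. *pax6a* and *pax6b*, needed for the eye and pancreas, were at 0.29 and 0.20, with the 6 probes of *pax6a* between 0.18 and 0.53. The photoreceptor markers were below 0 in the same larvae, and a link between them and the eye factors was not tested. Of 14 listed markers 13 gave a ratio, and all 13 were at least 1.5-fold lower, with a median of -1.66 and a summed intensity of 5865% in *miR-132* MO and 18290% in Ctrl MO.

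The markers of neurons lay mostly below 0 and those of neural progenitors and glia near the median of the patterning factors. The neuron markers had a median of -0.25 over 10 of 12 listed genes, with 3 above 0 and 1, *eno2* at -0.71, past 1.5-fold, and a summed intensity of 6221% in *miR-132* MO and 7306% in Ctrl MO. The markers of neural progenitors and radial glia had a median of 0.13 over 5 of 8 listed genes, with 3 above 0, 2 below and 0 past 1.5-fold. *gfap* and *her4.1* were each at 0.45, and *slc1a3b* was lowest at -0.15. The summed intensity of these markers was 8009% in *miR-132* MO and 7245% in Ctrl MO. Most of it came from *fabp7a* alone, with 7402% in *miR-132* MO and 6743% in Ctrl MO. The part of either cell class in the ratios above was not tested.

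**Figure D3:**
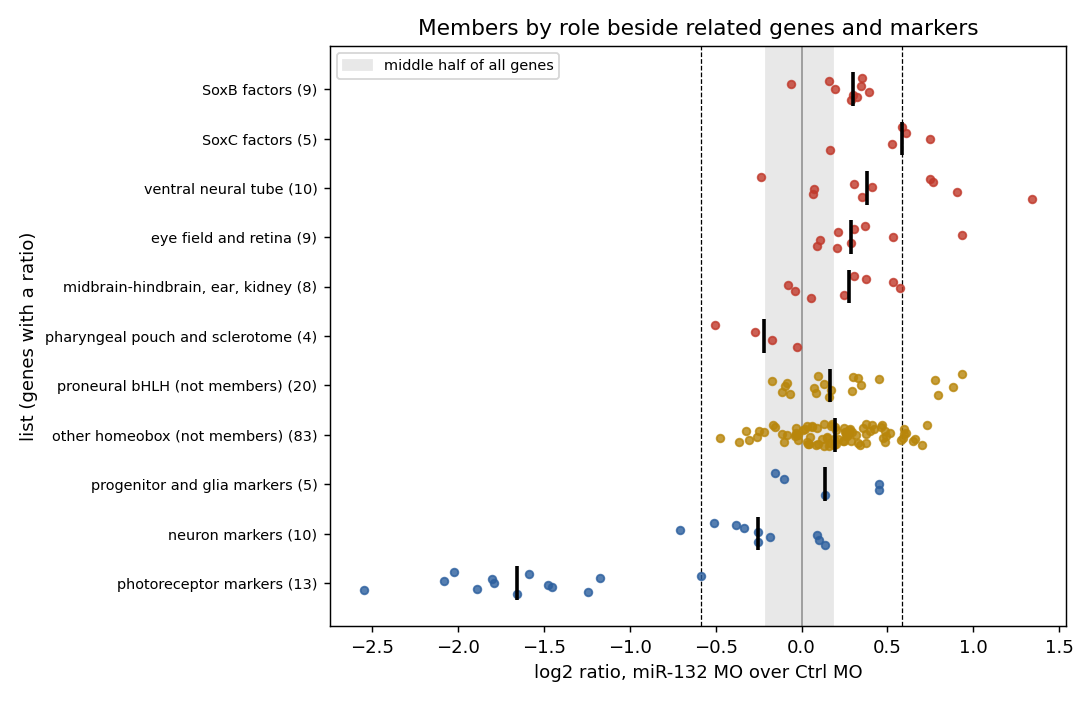
Log2 ratio, *miR-132* MO to Ctrl MO (horizontal axis), for patterning factors grouped by role (red), related transcription factors (ochre) and cell type markers (blue), 1 point per gene with the median as a bar, the grey band holding the middle 50% of all genes and dashed lines at 1.5-fold. SoxC and ventral neural tube factors lie to the right with medians of 0.58 and 0.38, the pharyngeal pouch and sclerotome factors at -0.22 and the photoreceptor markers far to the left at -1.66.

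At the midbrain-hindbrain boundary and in the ear and kidney, the Pax2 duplicates stood out from their neighbours on the list. *pax2b* was the highest Pax gene, with 36.4% in *miR-132* MO and 24.4% in Ctrl MO, a log2 ratio of 0.58 just under 1.5-fold, and it passed that limit with quantile normalization at 0.60, median scaling at 0.59 and spike-in scaling at 0.65. *pax2a* read 57.8% in *miR-132* MO and 39.9% in Ctrl MO, and its 5 probes lay between 0.36 and 0.67. *irx7*, which acts in the hindbrain and retina, was at 0.38 and *pax5*, the partner of the Pax2 genes at the boundary, at 0.25. *dlx3b* and *dlx4b*, needed for the ear placode, were at 0.05 and -0.04. Over the 8 genes of this list the median was 0.28, and 6 were above 0.

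The forebrain and hypothalamus list lay nearer to the median of all genes. Its 14 genes had a median of 0.14, with 12 above 0 and none past 1.5-fold. *nkx2.4a*, a hypothalamic factor, was at 0.47, and *lhx5*, which promotes forebrain development, at 0.38, with 249% in *miR-132* MO and 192% in Ctrl MO. *foxg1a* of the telencephalon was at 0.18 and *foxb1a* at 0.19. *lhx6a*, which marks migrating interneurons of the ventral telencephalon in mouse, was at -0.13 and *nkx2.1* at -0.04.

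The Dlx genes, which pattern the pharyngeal arches, the fin fold and inhibitory neurons of the forebrain, varied least among the families. The 8 ratios ran from -0.11 to 0.23. *dlx2a* was the highest, with 77.0% in *miR-132* MO and 65.6% in Ctrl MO. *dlx4a* was the lowest, with 189% in *miR-132* MO and 204% in Ctrl MO. Of the 6 Dlx genes with a role in the arches and fin fold, 4 were above 0 and the median was 0.04.

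The factors of the pharyngeal pouches and of the sclerotome, the source of the vertebrae, were below 0 in 4 of 4 genes with a ratio. Their median was -0.22, and none reached 1.5-fold. *pax9* was the lowest Pax gene, with 40.7% in *miR-132* MO and 57.5% in Ctrl MO, a log2 ratio of -0.50 with probes at -0.27 and -0.74. *pax1a*, which acts with *pax9* in both tissues, was at -0.27. *nkx3-2*, a factor of the jaw joint, was at -0.17 and the lowest Nkx gene, with 23.3% in *miR-132* MO and 26.3% in Ctrl MO, and *nkx2.3* was at -0.03. The markers of cartilage, a tissue that forms from both the arches and the sclerotome, had a median of 0.22 over 5 of 7 listed genes, with 0 past 1.5-fold and a summed intensity of 3058% in *miR-132* MO and 2634% in Ctrl MO.

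Factors of the dorsal neural tube, muscle precursors and pigment lineage were close to 0, with a median of 0.04 over 4 genes. *pax3a* was at 0.10, *pax7a* at -0.02 and *pax7b* at -0.05. The 3 probes of *pax7a* ran from -0.40 to 0.45, so its mean near 0 covers probes of both signs. *foxd3*, a factor of neural crest, was at 0.40, with 70.3% in *miR-132* MO and 53.4% in Ctrl MO.

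Endoderm factors held both signs. Of 7 genes on the endoderm, liver and pancreas list, 5 were above 0: *nkx6.2*, *nkx2.2a*, *nkx6.1*, *pax6b* and *foxa2*. These 5 are also counted on the ventral neural tube or eye lists above, so the lists share genes. *foxa1* and *foxa3*, pioneer forkheads of gut and liver, were at -0.06 and -0.29. The 3 probes of *foxa1* were at -0.26, -0.19 and 0.28, so its mean covers probes of both signs. *foxa3* read 24.9% in *miR-132* MO and 30.5% in Ctrl MO, and its 3 probes were all below 0, from -0.40 to -0.09. The exocrine pancreas markers moved much further. Of 15 listed markers 12 gave a ratio, and all 12 were at least 1.5-fold lower, with a median of -3.81 and a summed intensity of 638% in *miR-132* MO and 6470% in Ctrl MO. Of 7 liver markers 2 were lower, *fabp10a* at -3.68 and *ttr* at -2.88. The median of the 7 was -0.27, and 3 were above 0, with *fga* highest at 0.56. The endocrine pancreas markers had a median of -0.13 over 7 genes, 1 of them, *pcsk2* at 0.68, past 1.5-fold.

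Among the heart factors, 5 of 6 were above 0 with a median of 0.25. The Iroquois gene *irx4b*, a ventricular factor by its homology to mouse Irx4, had the highest ratio of its family, with 6.12% in *miR-132* MO and 3.23% in Ctrl MO. Its log2 ratio of 0.92 is the mean of probes at 0.23 and 1.61, and on the brighter of them it did not pass 1.5-fold. *irx4a* and *nkx2.7* were both at 0.33. *nkx2.5*, the classic early heart factor, was at -0.13, with 2.69% in *miR-132* MO and 2.95% in Ctrl MO. The heart muscle markers were above 0 in 6 of 6 genes with a median of 0.21, of which *nppa*, at 0.76, was past 1.5-fold. In the rest of the Iroquois family *irx5b* was the lowest, with 3.91% in *miR-132* MO and 5.44% in Ctrl MO, a log2 ratio of -0.47 with probes at -0.17 and -0.78.

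The forkhead family, the largest with 38 genes measured, spanned ratios from -0.77 to 0.93. Members FoxA to FoxD had a median of 0.08 over 10 genes with 0 past 1.5-fold. Members FoxE to FoxL had a median of 0.10 over 15 genes with 1 higher, and FoxM to FoxQ a median of 0.08 over 13 genes with 2 higher and 1 lower. *foxj1a*, the master gene of motile cilia, was the gene higher in the middle group, with 25.1% in *miR-132* MO and 14.7% in Ctrl MO, a log2 ratio of 0.77. It was measured by 2 probes, at 0.67 and 0.87, and a further probe was not well above background on either array. Its relative *foxj1b*, which shares this role in the ear, was at -0.07.

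The FoxO factors, which respond to insulin and stress signals, gave opposite signs. *foxo1a* read 4.74% in *miR-132* MO and 3.1% in Ctrl MO on its single probe, a log2 ratio of 0.61. The single probe of *foxo1b* read 1.54% in *miR-132* MO, which is not well above background there, and 3.11% in Ctrl MO. Set against 1.82%, the lowest mean of a probe with most of its spots well above background in *miR-132* MO, *foxo1b* was at least 1.71-fold lower. Set against 1.94%, the lowest single spot well above background, it was at least 1.60-fold lower. *foxo6b* was at -0.17, with probes at -0.57 and 0.24. The lower of these probes was dim in *miR-132* MO, with 1.91% there and 2.84% in Ctrl MO. The other read 171% in *miR-132* MO and 145% in Ctrl MO, so the negative sign of *foxo6b* rests on its dim probe. *foxo1a* and *foxo1b* rest on 1 probe each.

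The remaining forkheads moved little. The 4 FoxP genes, which act in neurons and gut, were above 0 with a median of 0.15, led by *foxp1b* at 0.29, while *foxp4* was at 0.01. The list of gut and vessel mesenchyme forkheads had a median of -0.03 over 5 genes. *foxf2a*, needed in the wall of brain vessels in mouse, was at -0.36, *foxq1b* at -0.34 and *foxf1* at -0.03. *foxl1* was at 0.10 and *foxl2a*, whose place on this list is uncertain, at 0.11. The endothelial markers had a median of -0.04 over 8 genes with 0 past 1.5-fold. *foxm1*, a driver of cell division, was at 0.08, and the other broadly expressed forkheads *foxk1*, *foxk2a*, *foxn2b* and *foxn3* lay between -0.07 and 0.17.

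**Figure D4:**
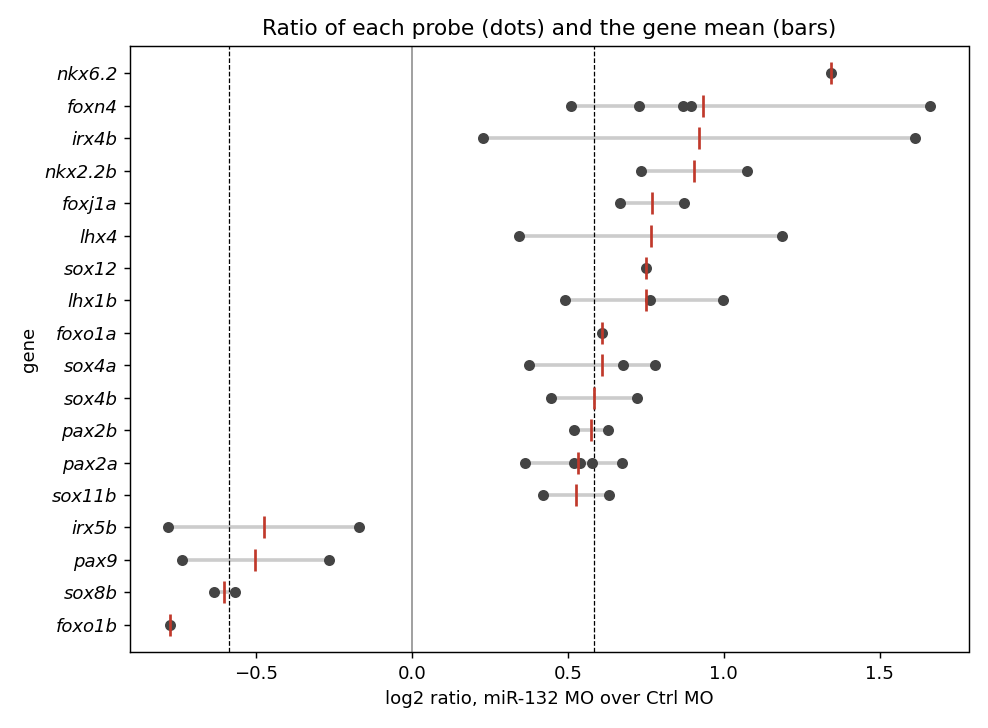
Log2 ratio, *miR-132* MO to Ctrl MO (horizontal axis), of each probe (dots) and the mean of each gene (red bars) for the 12 patterning factors past 1.5-fold and the 6 nearest to it that the text names; dashed lines mark 1.5-fold. The 5 probes of *foxn4* run from 0.51 to 1.66 and those of *irx4b* lie at 0.23 and 1.61, while both *sox8b* probes lie within 0.06 of each other.

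Different probes of one gene mostly gave the same sign. Among 62 patterning factors with more than 1 probe, all probes were above 0 in 34 and below 0 in 10, and 18 had probes of both signs. The share with all probes above 0 was 54.8%, against 32.4% of 7173 genes with more than 1 probe in the whole array, and the share with all probes below 0 was 16.1%, against 28.4%. The range between probes of a gene had a median of 0.21 among the patterning factors and 0.26 among all genes. The range passed 1 in 2 patterning factors, *irx4b* and *foxn4*. With only the brightest probe per gene, 5 of the 10 higher genes were under 1.5-fold, with *foxn4* at 0.51, *lhx1b* at 0.49, *sox4a* at 0.38, *lhx4* at 0.35 and *irx4b* at 0.23. With normexp background correction *nkx6.2* alone stayed past 1.5-fold, at 0.76. Asking every probe of a gene to pass 1.5-fold left 5 patterning factors higher and 1 lower, where 2.76% of all genes passed as higher and 6.58% as lower. Of these, *foxo1a*, *nkx6.2*, *sox12* and the lower *foxo1b* have 1 probe each. Neither this demand nor the brightest probe setting could change their calls.

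**Figure D5:**
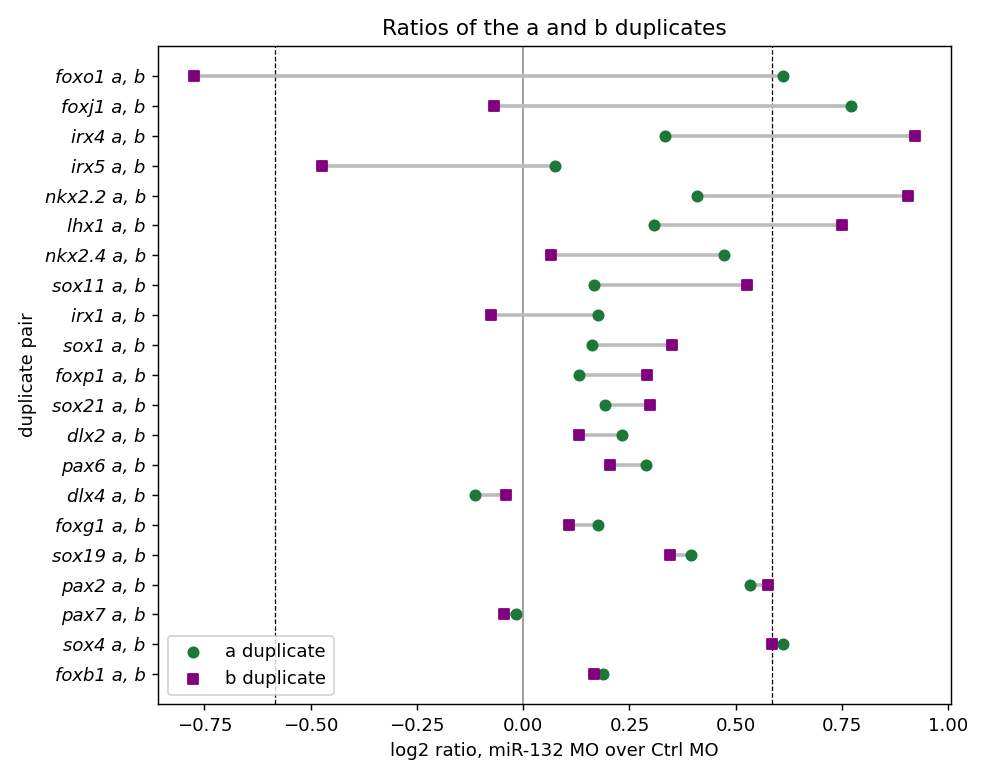
Log2 ratio, *miR-132* MO to Ctrl MO (horizontal axis), of the a duplicate (green circle) and the b duplicate (purple square) in 21 pairs of patterning factors, ordered by the difference between them; dashed lines mark 1.5-fold. The *foxo1* pair is widest, at 0.61 for a and -0.77 for b. At the bottom 9 pairs differ by less than the spot SD of 0.10, which leaves out the range between probes.

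The a and b duplicates of a gene had the same sign in most pairs. Of 21 pairs with both ratios, both were above 0 in 15 and below 0 in 2, and 4 had opposite signs. The share with the same sign was 81.0%, against 58.5% of all 5671 pairs that the patterning factors can form and 59.7% of 879 pairs of a and b duplicates among the other genes. The difference between the 2 ratios had a median of 0.16, against 0.27 over all pairs of patterning factors and 0.25 over the duplicates among the other genes. No test was run on these shares or medians. In 9 of the 21 pairs the difference was smaller than the spot SD of 0.10. That SD leaves out the range between probes of a gene, so it is not the error of such a difference. *pax7a* and *pax7b* differed by 0.03, though their probes ran from -0.40 to 0.45 and from -0.35 to 0.26. *foxb1a* and *foxb1b* differed by 0.02, *sox4a* and *sox4b* by 0.03, and *pax2a* and *pax2b* by 0.04. Differences of 0.5 or more were found in 4 pairs: *foxo1* at 1.38, *foxj1* at 0.84, *irx4* at 0.59 and *irx5* at 0.55. In the *foxj1* and *foxo1* pairs the a duplicate was the higher, and in the *irx4* pair the b duplicate. In both *foxj1b* and *foxo1b*, 1 probe was set to its floor in *miR-132* MO. In each of these 4 pairs at least 1 duplicate read under 10% of the 75th percentile on both arrays. Whether a probe also binds the transcript of the other duplicate was not tested.

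Of the 10 genes without a ratio, *foxh1*, *foxl3*, *lhx2a*, *nkx1.2la* and *sox17* were not well above background on either array. *foxg1c*, *foxn1*, *nkx2.9*, *nkx6.3* and *sox32* were well above background in Ctrl MO only, and with the dim side in *miR-132* MO set to its floor they were no longer lower there, which leaves no bound. The widest gap between their own readings was that of *foxg1c*, with 0.697% in *miR-132* MO and 1.36% in Ctrl MO. *foxh1*, *sox17* and *sox32* are best known from gastrulation, before the stage sampled here. All probes were well above background on both arrays in 100 genes, in 6 more some probes were dim, and *foxo1b* was dim in *miR-132* MO.

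Transcription factors that work beside these families, taken from lists of other homeobox genes, cofactors and proneural genes, also lay mostly above 0. Of 95 other homeobox genes listed, 83 gave a ratio, with 65 above 0, a median of 0.20, 8 higher at 1.5-fold and 0 lower. *lmx1a*, a factor of the roof plate, led them at 0.73 on a single probe of low intensity, with 3.82% in *miR-132* MO and 2.31% in Ctrl MO. The TALE factors *pbx4*, *pbx1b* and *meis2b*, which bind DNA together with other homeodomain proteins, were at 0.70, 0.66 and 0.65. The cofactors of LIM-homeodomain, Groucho-binding and TALE factors were above 0 in 13 of 14 genes, with a median of 0.23 and none past 1.5-fold, *lmo2*, best known from blood and vessels, being highest at 0.40. The proneural and neurogenic bHLH genes had a median of 0.17 over 20 of 25 listed genes, and 4 were higher and 0 lower. These 4 were *atoh7*, which retinal ganglion cells need, at 0.94, *neurog1*, which starts neurogenesis, at 0.88, *neurod4*, a later neurogenic gene, at 0.80 and *olig2*, a factor of motor neurons and oligodendrocytes, at 0.77. These lists were chosen with results of the same arrays known, so they are a description and add no independent evidence of direction.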

How the data were processed

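Total RNA from larvae injected with *miR-132* MO and larvae injected with Ctrl MO was measured on 1 Agilent array each, and groups were taken from the sample labels. The authors deposited the spot intensity as written by Agilent Feature Extraction 10.7 (submitters' processing notes), background-subtracted within the array and not normalized between arrays. Flags for spots well above background, saturated or not uniform are in the same deposited files. A rounded copy of these values and the authors' table of selected probes, which holds their own fold changes, were not used.

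Log2 intensity, less the 75th percentile over the non-control spots of its array, was averaged over the spots of a probe and the probes of a gene, after 9 outlier spots were left out. Of 43599 probes, 38536 were well above background on at least 1 array and were kept. Where only 1 array was above background, the dim side took its own value or the lowest value well above background, whichever was higher. Only where it took the lowest value is the ratio a bound. This lowest value was taken over probes with most of their spots well above background. A gene dim on 1 array that was not lower there once set to this value has no ratio. Of 26979 probes with a RefSeq accession, 25067 matched 12857 genes in the NCBI gene table of assembly GRCz12tu. The array was annotated on Zv8, so that table gave names and neighbours only and no coordinates are given. No table or genome of sequences was used, so no sequence is shown.

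The members, families, role lists and alternatives were chosen with earlier results of these data known. Both intensities were given for members at least 1.5-fold higher or lower, for duplicates whose ratios differ by at least 1 and for the highest and lowest member of each of the 7 families, and otherwise only where a sentence compares them, a choice made with the values seen. Related and marker genes were given by counts, medians and up to 4 examples of largest ratio. With 1 array per group no test, p-value or replicate error exists, and precision is limited by the number of arrays.

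The alternatives were quantile normalization, loess (span 0.3), median scaling, scaling by 7 spike-in probes, normexp background correction with an offset of 50 on the median signal, a filter asking for both arrays above background, no filter, only the brightest probe per gene, a 2-fold limit and every probe past the limit. After the data were seen, the dim side at its own value, background outlier flags normexp without an offset and, for *foxo1b*, a floor at the lowest single spot were added. The functions were tested on simulated arrays. Analyses ran in R 4.3.3 with limma 3.58.1 and in Python 3.11.15 with numpy 2.4.6 and pandas 2.3.3. The loess came from statsmodels 0.14.6 and figures from matplotlib 3.10.9.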

Additional observations from a re-analysis of the deposited data

How the results depend on the processing

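No paired analysis was possible because there is only 1 array per group, and no sample could be left out. In 11 settings that recompute the ratios, the median of the patterning factors minus that of all genes lay between 0.13 and 0.18, and 0 of the named values that passed 1.5-fold changed sign. The counts of patterning factors past the limit did move. The higher count was 10 in the main setting, 6 with the brightest probe, 1 with normexp, 5 with every probe past the limit and 1 at 2-fold. The lower count was 2 in the main setting, 4 with no filter on dim probes, 3 with the dim side at its own value, 1 with loess, spike-in scaling, both arrays above background, the brightest probe and every probe past the limit, and 0 with quantile normalization, normexp with or without an offset, and at 2-fold. Over all genes normexp gave 235 higher and 573 lower, no filter 762 higher and 1242 lower, and the 2-fold limit 122 higher and 418 lower. For all genes the brightest probe gave 438 higher and 1041 lower, and quantile normalization 608 higher and 829 lower.

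*nkx6.2* passed 1.5-fold in 11 of 11 settings. *foxj1a* and *foxo1a* passed in 10 of 11, *foxn4*, *irx4b*, *lhx4*, *nkx2.2b* and *sox12* in 9, *lhx1b* and *sox4a* in 8, *sox8b* in 5, and *foxo1b* in 7 of the 10 that gave it a ratio. The brightest probe setting among these cannot change the ratio of a gene with 1 probe, as *foxo1a*, *foxo1b*, *nkx6.2* and *sox12* have. With the floor at the lowest single spot *foxo1b* was at -0.68, and 10 patterning factors were higher and 2 lower. *sox4b* entered in 4 settings and *pax2b* in 3.

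Normexp adds the same offset to dim and bright probes before the arrays are scaled, and so narrows the ratios of dim ones. The median over all genes was -0.04 with normexp, against -0.01 in the main setting. With normexp the medians were 0.00261 for Pax, 0.17 for Lhx, 0.0233 for Nkx, 0.46 for SoxC and 0.0899 for SoxD. They were 0.10 for the midbrain-hindbrain boundary list, -0.0794 for pharyngeal pouch and sclerotome, 0.0931 for ventral neural tube, 0.0372 for endoderm and 0.12 for heart. Among the forkheads they were 0.16 for the ciliated cell list, -0.0580 for FoxO, 0.00793 for FoxP and -0.0358 for the broadly expressed list. Without the offset they were 0.13 for Nkx, 0.12 for SoxD, -0.0401 for pharyngeal pouch and sclerotome and 0.12 for the mesenchyme forkheads. With the brightest probe they were 0.42 for SoxC, 0.14 for heart and 0.24 for FoxO. With both arrays above background the FoxO median was 0.42. That setting leaves out *foxo1b* and the dim probe of *foxo6b*, whose other probe, also its brightest, was at 0.24. Quantile normalization gave 0.18 for the dorsal neural tube list, and the dim side at its own value gave 0.0666 for Nkx and 0.22 for ciliated cell forkheads. What else moved these medians was not tested.

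The limits are those of the arrays. There is 1 array per group, so a difference between 2 single RNA samples and an effect of the morpholino cannot be told apart. Genes such as *foxo1a*, *nkx2.2b*, *irx4b* and *irx5b* gave low intensities, though all their probes were well above background on both arrays. The part of the wider background of *miR-132* MO in their ratios was not tested. The alternative of naming members through RefSeq accessions only was not run, because all members were named that way.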

Other observations

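Patterning factors that lie next to each other in the genome can share enhancers, so their ratios were set side by side. The pairs were chosen after the values had been seen. In the gene order of the reference assembly 18 pairs of measured members lay with at most 1 gene between them, and 11 of the 18 had ratios of the same sign. That is 61.1%, against 58.5% of all pairs that the patterning factors can form. The difference between neighbours had a median of 0.31, from 0.05 to 1.0, against 0.16 for the 21 pairs of a and b duplicates, and some genes stand in several pairs. In the Dlx pairs *dlx5a* was at 0.07 and *dlx6a* at 0.03, *dlx3b* at 0.05 and *dlx4b* at -0.04, and *dlx1a* at 0.08 and *dlx2a* at 0.23. All 8 Dlx ratios lay between -0.11 and 0.23, so Dlx genes that are not neighbours were close too. The part of shared regulatory sequence in these ratios was not tested. *nkx2.2a* at 0.41 and *nkx2.4a* at 0.47 were close, but *pax1a*, which lies directly beside *nkx2.2a*, was at -0.27. *irx1b* at -0.08 and *irx4b* at 0.92 lay furthest apart, then *sox8b* at -0.60 and *sox9b* at 0.33.

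The 8 factors kept apart from the families in the comparisons above were all under 1.5-fold. *foxc1a*, which acts in the somites and in brain vessels, was highest at 0.22, with 309% in *miR-132* MO and 266% in Ctrl MO. *foxo3a* was lowest at -0.25, with 118% in *miR-132* MO and 140% in Ctrl MO, and *foxo3b* was at -0.17. The neural crest factor *sox10* was at -0.16 and the cartilage factor *sox9a* at -0.03, where its duplicate *sox9b* was at 0.33.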
